A study of Mus musculus with 4 samples.

Results

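Zfp genes encode C2H2 zinc finger proteins, and 222 protein-coding genes on mouse chromosomes 1 to 6 and 11 to 19 carried a symbol made of Zfp and digits in the GENCODE M21 annotation of mm10. Of these, 184 were kept because at least 5 CpG sites between gene start and gene end were listed in all 4 libraries, and the other 38 were left out. The kept genes were set against 12364 other protein-coding genes that passed the same rule on the same chromosomes.

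A C2H2 finger is a short fold in which a pair of cysteines and a pair of histidines hold a zinc ion, and tandem fingers read DNA base by base. Many of these proteins also carry a KRAB domain, which recruits TRIM28 and with it the histone methyltransferase SETDB1 to silence transposable elements and imprinted regions. The genes often sit in clusters of recent duplicates, and the whole finger array is commonly encoded in the last exon, so that tandem repeats of coding sequence rich in CpGs lie far from any promoter.

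DNA methylation was measured by reduced representation bisulfite sequencing, which cuts DNA with MspI and so favours CpG-rich fragments. There were 4 libraries, each without a replicate. The R1 library came from a wild-type mouse embryonic stem cell (ESC) line, and the Tet/Tet library from a line derived from R1 in which tet-off constructs sit behind the Dnmt1 promoter and overproduce DNMT1, the maintenance methyltransferase. The other two libraries were neurons made from each line through 2 days as embryoid bodies and 10 to 15 days in neural medium. Tet/Tet cells were grown with 1 µg/ml puromycin and 150 µg/ml neomycin, which the R1 cells did not receive. The line and the antibiotics therefore cannot be told apart, and with 1 library per condition no p-value was computed.

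Each library listed between 2311939 and 5298360 CpG sites, with a percentage of methylated reads at each and no read counts, so the depth behind a value is unknown. The ESC libraries and the neuron libraries were sequenced in separate projects, so that cell type and project cannot be told apart, whereas R1 and Tet/Tet of the same cell type shared a project. A region's level is the unweighted mean of its CpGs listed in all 4 libraries, given where there were at least 5. A difference of at least 10 percentage points was counted as higher or lower. Where 4 values are given in a row, they are those of the ESCs of R1 and of Tet/Tet, followed by the neurons of R1 and of Tet/Tet.

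The label was checked on the coding sequence. The codon pattern of a C2H2 finger was found in 177 of the 184 kept genes, with a median of 9 and at most 36 fingers per gene. It was found in none of Zfp750, Zfp839, Zfp935, Zfp503, Zfp957, Zfp707 and Zfp474. All fingers lay in the last exon in 125 genes, some in 12, and none in 40, so the last exon held the array in most but not all of these genes. A KRAB codon pattern was found in 55 genes, and 63 genes lay in clusters of at least 3 Zfp genes spaced at most 200 kb apart. Both patterns are strict and were read in frame from the first base of the chosen transcript's coding sequence. A finger or KRAB domain that departs from them was missed, so a gene without a match may still encode fingers.

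Many of the 38 genes left out were near copies of other sequence. At the threshold, Zfp616, Zfp712, Zfp758, Zfp759, Zfp820 and Zfp988 had 4 shared sites and were left out, and Zfp120, Zfp345, Zfp87, Zfp937 and Zfp973 had 5 and were kept. In 25 of the 38 genes left out at least 20% of the 50-base stretches of the last coding exon occurred elsewhere in the genome, against 25 of the 173 kept genes with such a stretch. The median repeated share was 38.4% in the genes left out and 0% in the kept genes. No library listed a site in 6 of the genes left out, so the values below describe the less repetitive part of the family.

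The sequences below show the kinds of last exon that the results turn on, as coding stretches read on the coding strand in mm10 (GRCm38) from RefSeq. The first is part of the finger array of Zfp775, at chr6:48620150-48620389 on the plus strand, which had low methylation in both ESC libraries and high methylation in R1 neurons. The second is part of the array of Zfp11, at chr5:129657528-129657767 on the minus strand, which was higher in ESCs of Tet/Tet than in those of R1. The third is a stretch of Zfp281 at chr1:136625293-136625532 on the plus strand, which was low in every library and lies within 1 kb of the gene start, so that its CpGs also count toward the promoter. Capitals mark CpGs listed in all 4 libraries.
Zfp775 coding stretch: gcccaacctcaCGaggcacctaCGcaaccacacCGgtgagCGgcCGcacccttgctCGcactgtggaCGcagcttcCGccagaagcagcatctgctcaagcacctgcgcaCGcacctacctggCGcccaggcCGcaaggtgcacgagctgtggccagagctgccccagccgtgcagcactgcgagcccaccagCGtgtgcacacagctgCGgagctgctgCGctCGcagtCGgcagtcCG
Zfp11 coding stretch: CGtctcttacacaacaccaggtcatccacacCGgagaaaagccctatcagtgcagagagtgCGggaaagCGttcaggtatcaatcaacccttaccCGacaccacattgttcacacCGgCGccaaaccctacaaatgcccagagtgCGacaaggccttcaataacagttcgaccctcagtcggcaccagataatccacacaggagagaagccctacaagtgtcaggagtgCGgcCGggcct
Zfp281 coding stretch: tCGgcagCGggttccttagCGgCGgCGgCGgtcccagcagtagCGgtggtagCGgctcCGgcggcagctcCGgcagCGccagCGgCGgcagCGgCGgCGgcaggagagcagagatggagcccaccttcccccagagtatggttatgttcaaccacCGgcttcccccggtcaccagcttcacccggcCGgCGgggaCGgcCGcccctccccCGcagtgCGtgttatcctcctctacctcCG

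The Zfp775 stretch held 17 shared CpGs among its 21. Their mean level was 8.70% and 1.08% in the ESCs of R1 and Tet/Tet, and 91.3% and 37.7% in their neurons. Of these CpGs 1, at position 48620273, was at 100% in ESCs of R1 and at 0% in those of Tet/Tet, and without it the means there were 2.99% and 1.15%. The Zfp11 stretch held 10 shared CpGs among 12, with means of 52.6%, 83.8%, 95.2% and 25.9%. The Zfp281 stretch held 24 shared CpGs among 27, with means of 1.97%, 1.99%, 2.83% and 2.34%. The first of these arrays was nearly bare of methylation in ESCs, the second was partly methylated, and the Zfp281 stretch stayed bare in all 4 libraries.

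Single fingers of 63 bases, read from the first cysteine codon to the last histidine codon, show how much CpG density differs within the family. They were chosen after their values were seen. Capitals again mark shared CpGs.
Zfp316 finger 8, chr5:143253905-143253967, minus strand: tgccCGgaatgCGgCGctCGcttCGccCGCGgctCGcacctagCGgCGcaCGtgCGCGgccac
Zfp697 finger 3, chr3:98427848-98427910, plus strand: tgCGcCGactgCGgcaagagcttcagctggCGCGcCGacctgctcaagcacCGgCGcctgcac
Zfp775 finger 7, chr6:48620202-48620264, plus strand: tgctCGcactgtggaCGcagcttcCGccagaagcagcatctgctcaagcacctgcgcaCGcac
Zfp7 finger 2, chr15:76890423-76890485, plus strand: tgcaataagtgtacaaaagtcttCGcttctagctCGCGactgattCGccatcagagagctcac
Zfp11 finger 7, chr5:129657655-129657717, minus strand: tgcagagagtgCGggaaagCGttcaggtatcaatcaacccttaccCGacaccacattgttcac

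The Zfp316 finger held 13 shared CpGs and averaged 1.08% in R1 ESCs and 7.47% in R1 neurons. The Zfp697 finger held 8 and averaged 2.58% and 2.31%. The Zfp775 finger, with 4 shared CpGs, rose from 1.01% in R1 ESCs to 95.4% in R1 neurons. The Zfp7 finger, with 4, went from 26.8% in R1 ESCs to 49.7% in Tet/Tet ESCs, and the Zfp11 finger, with 3, from 55.1% to 87.4%. The 2 fingers with the most CpGs of these 5 were the 2 that stayed low in R1 neurons.

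Promoters of Zfp genes, taken as 1 kb either side of the gene start, were mostly low, with more exceptions in R1 neurons than in the other libraries. The median of the 159 promoters with at least 5 sites was 2.15% and 2.54% in the ESCs of R1 and Tet/Tet, and 4.24% and 2.57% in their neurons. In R1 ESCs 150 of them (94.3%) were under 10%, against 88.8% of other genes, and in R1 neurons 119 (74.8%), against 68.8%. In R1 neurons 9 Zfp promoters (5.66%) were at least 50%, against 11.8% of other genes, and the highest was Zfp229 at 98.0%. The medians of other genes were 2.47%, 2.68%, 4.88% and 2.74%. A CpG island was present at the start of 118 of the 184 kept genes.

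Gene bodies and last exons were intermediate in ESCs, high in neurons of R1 and low in those of Tet/Tet. The 136 gene bodies had medians of 35.0% and 35.5% in the 2 ESC libraries, 88.8% in the neurons of R1 and 16.4% in those of Tet/Tet. The 69 last exons had medians of 28.4%, 34.4%, 94.2% and 18.2%. Other genes had 39.3%, 41.9%, 88.6% and 15.0% in gene bodies and 30.0%, 32.3%, 91.6% and 15.4% in last exons. Both sets thus followed the same order of libraries.

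**Figure D1:**
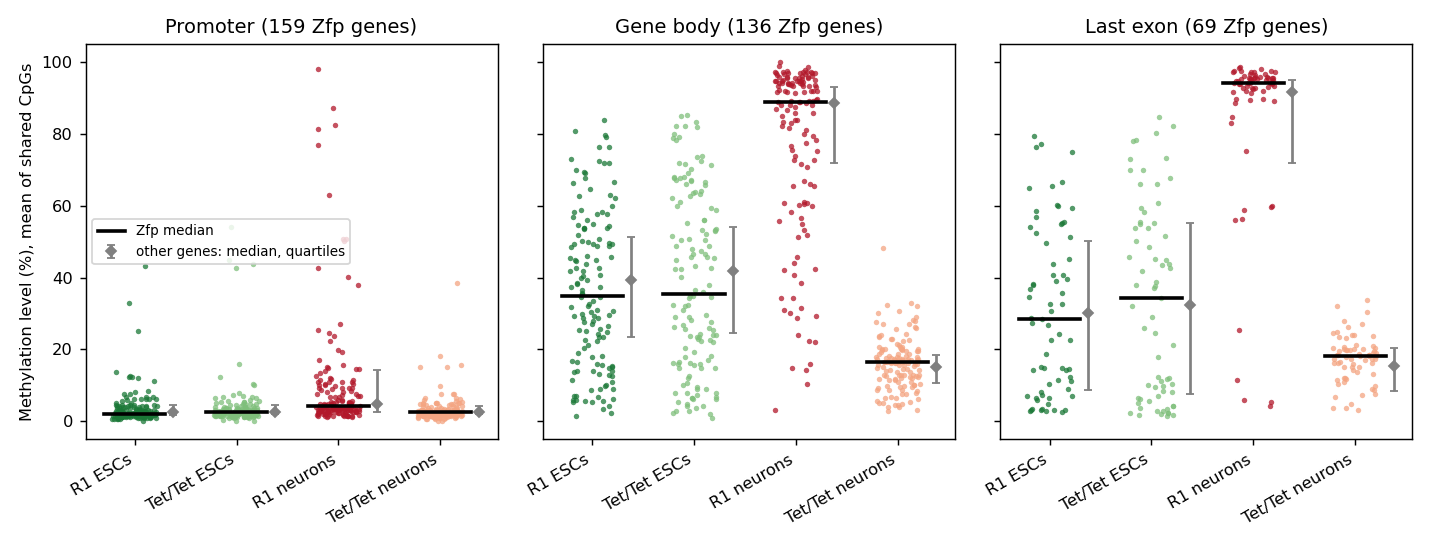
Methylation level (%, mean of the shared CpGs of a region, vertical axis) of each Zfp gene in the 4 libraries for promoter, gene body and last exon, each point a gene. Black bars are Zfp medians and grey diamonds with whiskers the median and quartiles of other protein-coding genes; last exons spread from 2.53% to 79.5% in R1 ESCs, and most gather near their median of 94.2% in R1 neurons.

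The middle of the distribution of Zfp last exons was wider in ESCs than in neurons, while the range in R1 neurons was at least as wide as in ESCs. In R1 ESCs they ran from 2.53% in Zfp467, a regulator of adipocyte and osteoblast fate, to 79.5% in Zfp407, with quartiles of 8.91% and 51.3%. In Tet/Tet ESCs the quartiles were 7.12% and 55.0%. In the neurons of R1 they were 89.7% and 95.7%, and in those of Tet/Tet 13.6% and 20.4%. In R1 neurons the lowest last exon was Zfp503 at 4.35% and the highest Zfp398 at 98.6%.

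The first comparison set ESCs of the DNMT1-overproducing line against those of R1. Gene bodies and last exons moved in both directions, with more genes higher than lower in Tet/Tet. Of 136 gene bodies, 19 were higher, against a background of 10.7% of other genes, and 8 were lower, against 4.09%. Of 69 last exons, 16 (23.2%) were higher, against a background of 15.7%, and 5 were lower, against 6.66%. The median difference was 0.96 points in gene bodies and 0.19 points in last exons, against 1.32 and 0.45 points in other genes. With sites confined to MspI fragments of 40 to 220 bp, 10 of 99 gene bodies and 8 of 47 last exons were higher and none was lower. Other genes were not counted within fragments, so this count has no background.

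Zfp11 had the highest rise of a gene body and of a last exon among members with at least 10 sites. Its last exon, with 27 shared CpGs and all 21 fingers, measured 55.5% and 84.6% in the ESCs of R1 and Tet/Tet, and 93.9% and 23.6% in their neurons. The standard deviation over its CpGs was 19.5 points in ESCs of R1 and 9.31 points in those of Tet/Tet. All 27 CpGs were higher in Tet/Tet among ESCs, and all 27 were lower in Tet/Tet among neurons. Within MspI fragments the difference in ESCs was 28.6 points over 19 CpGs. The gene body of Zfp11 is almost the same set of CpGs, 28 in all, and rose from 53.5% to 85.2%.

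The last exon of Zfp462, a many-fingered protein of ESC chromatin, held 12 shared CpGs and none of its 33 fingers. It measured 18.7%, 37.8%, 97.2% and 20.4%, with all 12 CpGs higher in Tet/Tet ESCs. The last exon of Zfp661 went from 32.5% to 50.3% over 13 CpGs, all of them higher, and then from 93.8% in R1 neurons to 18.4% in Tet/Tet neurons. Zfp7, with 16 fingers, measured 22.7% and 37.1% in R1 and Tet/Tet ESCs and 95.9% and 26.2% in the neurons, and 30 of its 31 CpGs were higher in Tet/Tet ESCs. In these exons and in that of Zfp11, all named because of their rises in ESCs, nearly every CpG moved the same way. CpGs of an exon share fragments and reads and are not independent, so they do not count as replicates.

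Among members with at least 10 sites, falls in ESCs were smaller than rises. The last exon of Zfp395 went from 45.2% in R1 to 32.2% in Tet/Tet ESCs over 11 CpGs, that of Zfp593 from 28.9% to 21.1% over 14, and that of Zfp219, a partner of Sox9 in cartilage, from 15.1% to 9.83% over 22. In Zfp219, 20 of the 22 CpGs were lower in Tet/Tet ESCs. Within MspI fragments the falls were -4.87, -1.90 and -5.48 points, none of them as large as 10 points. Among gene bodies, Zfp106, an RNA-binding protein of motor neurons, went from 50.0% to 32.1%, Zfp512 from 43.8% to 29.6% and Zfp746 from 15.0% to 2.86%. Within fragments the differences were -1.82, -5.48 and -1.14 points over 5, 5 and 6 CpGs. Larger falls rested on fewer CpGs, -27.95 points in the gene body of Zfp981 over 8, -27.5 points in that of Zfp39 over 5, and -22.24 points in the last exon of Zfp831 over 5. Zfp981 lies in a chromosome 4 cluster whose genes had a median repeated share of 85.6%. Reads of near-identical copies could have been placed there, so the value of Zfp981 is uncertain.

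Among gene bodies with at least 10 sites, the largest rises after Zfp11 were in Zfp287 and Zfp346. Zfp287 went from 37.3% to 61.0% over 18 CpGs, and by 13.95 points over the 8 of them in fragments. Zfp346, a binder of double-stranded RNA, went from 25% to 45.8% over 10 CpGs, of which 1 lay in a fragment. In Zfp346, 13 of the 20 values in the 2 ESC libraries were exactly 0% or 100%. Over 5 CpGs each, Zfp825 rose by 35.97 points, Zfp24 by 30.8, Zfp326 by 28.8 and Zfp933 by 22.3.

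In ESCs 3 of 159 Zfp promoters were higher in Tet/Tet, against a background of 2.19%, and none was lower, against 1.0%. Zfp229, a KRAB zinc finger gene in the largest cluster of chromosome 17, had the highest rise, from 12.1% in R1 to 42.7% in Tet/Tet ESCs over 10 CpGs. In neurons it measured 98.0% in R1 and 15.7% in Tet/Tet. Only 2 of the 10 CpGs lay in MspI fragments, where the difference was 6.36 points, and 8 of the 20 ESC values were exactly 0% or 100%. The other 2 were Zfp951, by 28.8 points over 9 CpGs, and Zfp831, by 10.95 points over 6. Among promoters with at least 10 sites, the next differences were 4.90 points in Zfp292 and 4.86 points in Zfp46. The lowest were -5.81 points in Zfp454, -5.76 points in Zfp867 and -5.65 points in Zfp81, and over fewer sites -8.46 points in Zfp65. No promoter was higher by 10 points among the 131 that kept at least 5 sites in fragments.

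**Figure D2:**
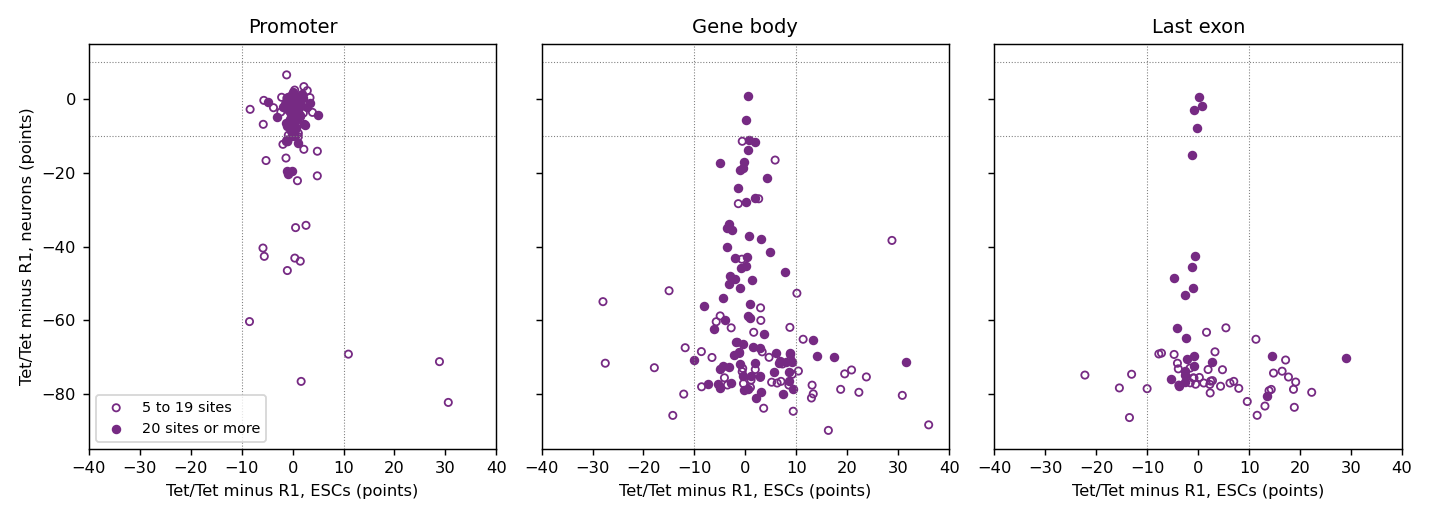
Tet/Tet minus R1 in percentage points, in ESCs (horizontal axis) and in neurons (vertical axis), for each Zfp gene; dotted lines mark 10 points, filled points rest on at least 20 CpGs and open points on 5 to 19. Differences in ESCs lie on both sides of 0 with most large ones open, whereas 134 of 136 gene bodies and 65 of 69 last exons lie below -10 points in neurons.

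In neurons the same comparison ran in 1 direction. In Tet/Tet neurons 134 of 136 Zfp gene bodies (98.5%) were lower than in R1 neurons, against a background of 96.1%, and 65 of 69 last exons (94.2%), against 88.5%. The median difference was -69.2 points in gene bodies and -74.7 points in last exons, against -70.5 and -71.4 points in other genes. Of 159 promoters 27 (16.98%) were lower, against a background of 25.7%. No promoter, gene body or last exon was higher by 10 points, against 0.0394%, 0.00951% and 0.0% of other genes. The share of gene bodies lay near the background, that of last exons above it and that of promoters below it, and none of these differences was tested.

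The lowest changes in neurons belonged to genes that were low in every library. The gene body of Zfp503, a developmental regulator of the striatum, measured 2.47%, 2.94%, 3.08% and 3.89% over 182 CpGs. Zfp644 measured 8.82%, 8.91%, 10.5% and 4.82% over 45, and Zfp800 10.1%, 10.7%, 16.02% and 5.02% over 220. The largest falls in gene bodies with at least 10 sites were in Zfp512, from 97.3% to 11.4%, in Zfp523, from 95.6% to 14.5%, and in Zfp474, from 94.1% to 13.0%. Those in last exons with as many sites were in Zfp398, from 98.6% to 15.3%, in Zfp69, from 96.7% to 16.1%, and in Zfp687, from 94.0% to 14.3%. Over fewer CpGs, the gene bodies of Zfp263 and Zfp825 changed by -89.9 and -88.4 points and the last exons of Zfp516, Zfp663 and Zfp474 by -86.4, -85.8 and -83.6 points.

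The highest gene bodies in Tet/Tet neurons, among the 102 with at least 10 sites, were those of Zfp986 at 32.3%, Zfp775 at 30.8% and Zfp160 at 28.9%. In Zfp986, 95.3% of the 50-base stretches of the last coding exon occur elsewhere, so reads of near-identical copies could have been placed there and its value is uncertain. The lowest were those of Zfp597 at 3.24%, Zfp503 at 3.89% and Zfp346 at 4%. The gene body of Zfp597 was low in R1 neurons too, at 15.0%.

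Among promoters with at least 10 sites, the largest falls in neurons were in Zfp229, in Zfp750, an epidermal differentiation factor, from 81.5% to 4.86%, and in Zfp879, from 50.8% to 4.27%. Over 6 to 9 sites, Zfp951, Zfp831 and Zfp65 changed by -71.2, -69.2 and -60.4 points. The largest rise was 6.61 points, in Zfp334, from 8.64% to 15.2%. Zfp160 rose by 2.48 points and Zfp763 by 2.33 points. Promoters with no island held most of the falls: 17 of 42 without an island and 10 of 117 with one were lower by at least 10 points. Other genes were not split by island, and 25.7% of all their promoters were lower.

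Differentiation was compared within each line. From R1 ESCs to R1 neurons 64 of 69 Zfp last exons were higher, against a background of 87.4%, with a median difference of 56.2 points against 44.6 points in other genes. Of 136 gene bodies 130 were higher, against 94.3%, and of 159 promoters 26 were higher, against 25.2%. None was lower by 10 points, against 0.0304% of other genes in last exons, 0.019% in gene bodies and 0.108% in promoters. From Tet/Tet ESCs to Tet/Tet neurons 9 last exons (13.0%) were higher, against a background of 3.65%, and 37 were lower, against 55.5%. In that line 3 gene bodies were higher and 87 lower, against 0.418% and 77.0%, and 1 promoter was higher and 4 lower, against 0.552% and 6.8%. The median of that last difference changed sign with the sites used, from -15.2 points to 1.71 points in MspI fragments.

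Of the last exons that were low in ESCs of R1, a larger share of Zfp than of other genes measured high in its neurons. In 18 of 69 Zfp genes and 891 of 3289 other genes the last exon was under 10% in R1 ESCs, which are shares of 26.1% and 27.1%. In R1 neurons 13 of the 18 Zfp exons (72.2%) were at least 50%, against a background of 259 of the 891 others (29.1%). At least 80% was measured in 8 of the 18, against 153 of the 891 others. This difference was noticed in these data and was not tested. In other families with C2H2 fingers, 3 of 15 last exons of Zbtb genes and 1 of 5 of Zscan and Zkscan genes were under 10% in R1 ESCs. All 15 and all 5 were at least 50% in R1 neurons, so the high share was not particular to Zfp genes. With sites over 1 kb from the gene start only, the shares were 81.2% of 16 Zfp exons and 36.9% of 675 others. They differed likewise in exons with at least 20 sites, with 64.3% of 14 Zfp exons and 14.8% of 526 others, and in MspI fragments, with 72.2% of 18 and 24.4% of 747.

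**Figure D3:**
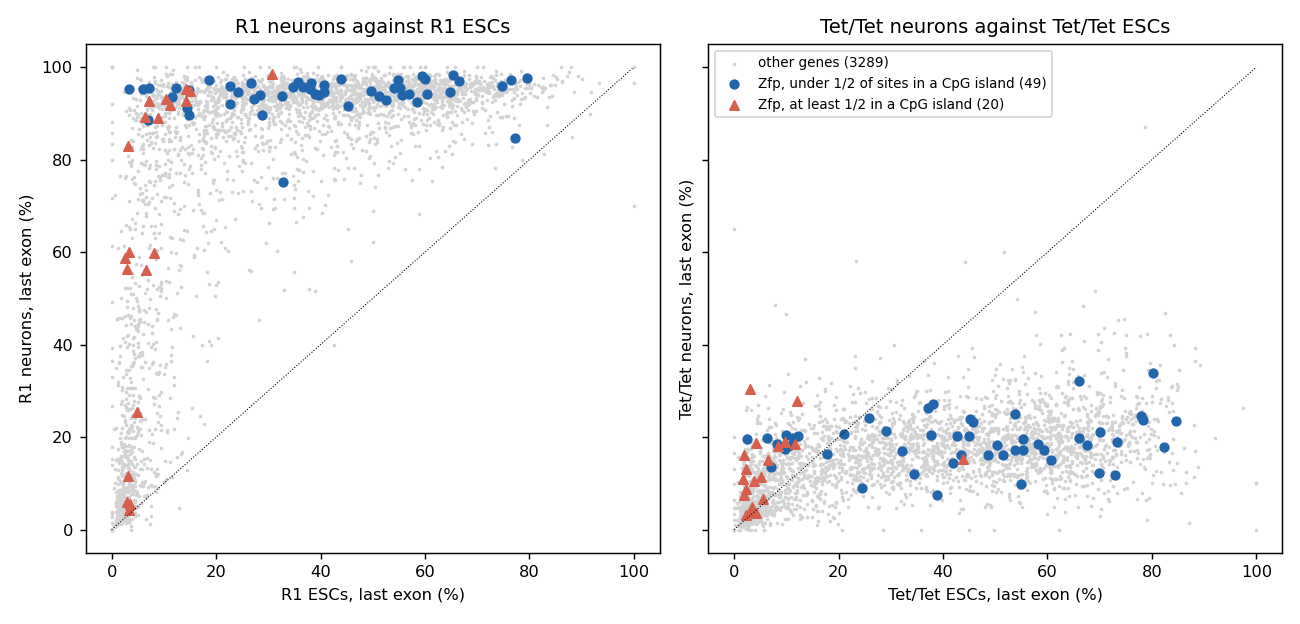
Last exon methylation (%) in neurons (vertical axis) against ESCs (horizontal axis) of the same line, R1 on the left and Tet/Tet on the right; grey points are 3289 other genes, blue circles 49 Zfp genes and orange triangles 20 Zfp genes with at least 1/2 of their sites in a CpG island, and the dotted line marks equal levels. In R1, 15 of the 20 island exons of Zfp genes reach 50% in neurons, against 212 of 773 island exons of other genes. In Tet/Tet neurons no Zfp exon exceeds 33.9%.

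The 18 exons fell into several kinds. Zfp775, with 11 fingers, measured 7.22%, 3.005%, 92.7% and 30.5% over 43 CpGs. Zfp169, with 17 fingers and a KRAB pattern, measured 6.04%, 6.26%, 95.3% and 19.8% over 12. Zfp647, with 13, measured 6.43%, 4.15%, 89.3% and 18.8% over 22. These arrays went from nearly bare in R1 ESCs to nearly full in R1 neurons.

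Zfp746, the repressor known as PARIS, went from 3.30% to 95.3% between these 2 libraries, and Zfp652 from 7.13% to 95.5%. Zfp213 went from 8.91% to 89.1%, Zfp239 from 6.97% to 88.6% and Zfp777 from 3.10% to 83.01%. A middle group of 5 reached 56.1% to 60.04% in R1 neurons. It was made up of Zfp46, Zfp282, Zfp467, Zfp853 and Zfp648, and each had a standard deviation over its CpGs of 14.6 to 27.7 points there.

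The other 5 exons stayed lower in R1 neurons. Zfp503 measured 4.35%, Zfp830 5.52%, Zfp281, a transcription factor of pluripotent cells, 6.06%, Zfp697 11.6% and Zfp316 25.5%. All shared CpGs of the last exons of Zfp281 and Zfp830 lay within 1 kb of the gene start and are also promoter sites. Of the 110 CpGs of Zfp503, 102 lay in a CpG island, as did 35 of 38 in Zfp281. The last exons of Zfp316 and Zfp697 were the 2 with the most shared CpGs of the family, 231 and 130.

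The CpGs within these exons did not move alike. In Zfp316 the standard deviation over CpGs in R1 neurons was 22.17 points around a mean of 25.5%, and in Zfp697 18.9 points around 11.6%. The 106 CpGs inside fingers of Zfp316 averaged 17.9% in R1 neurons and the others 31.97%, and in Zfp697 the 59 inside fingers averaged 8.85% and the others 13.9%. In Zfp775 the 17 CpGs inside fingers averaged 93.5% there and the others 92.2%.

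**Figure D4:**
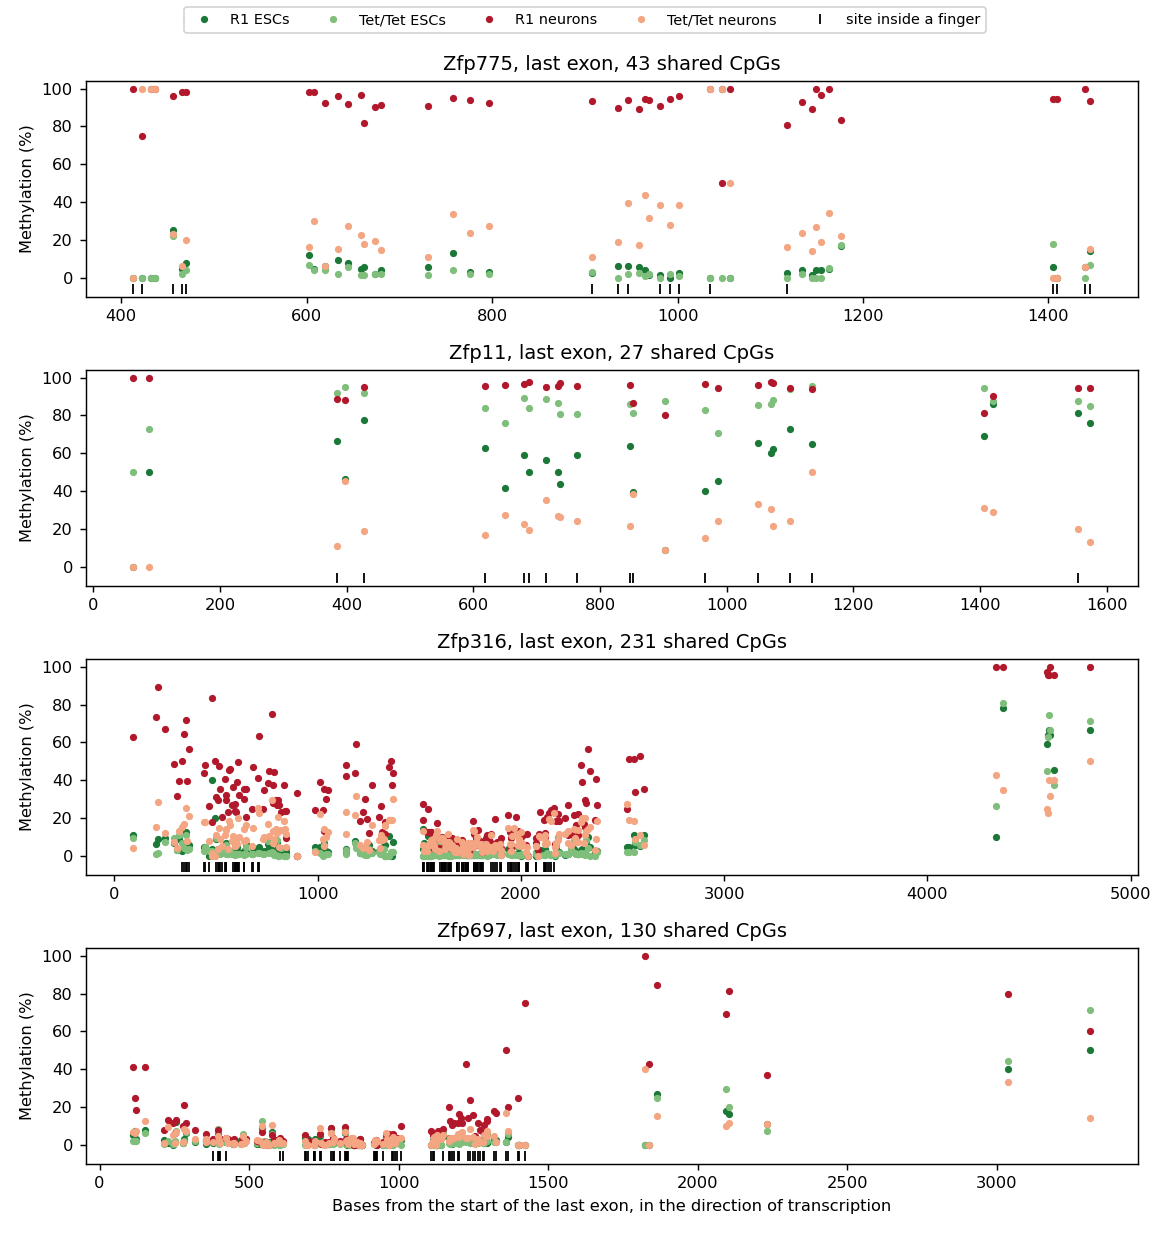
Methylation (%) of each shared CpG along the last exons of Zfp775, Zfp11, Zfp316 and Zfp697, by bases from the exon start in the direction of transcription; colours are the 4 libraries and black ticks mark CpGs inside a finger. Zfp775 and Zfp11 are high at nearly every CpG in R1 neurons, whereas the CpG-dense arrays of Zfp316 and Zfp697 are lower, with higher CpGs beyond them.

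CpG islands were present in both sets, yet the levels differed. Among last exons with at least 1/2 of their sites in an island, the 20 Zfp exons had medians of 6.49%, 3.96%, 71.5% and 12.3%. The 773 such exons of other genes had 3.72%, 3.17%, 16.7% and 3.85%. Many of the latter lie near a start site. With sites over 1 kb from the gene start only, the medians in R1 neurons were 86.0% for 18 Zfp exons and 30.7% for 588 others. Exons with fewer island sites were alike in R1 neurons, at 95.0% for 49 Zfp genes and 93.3% for 2516 others.

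The part of the exon that encodes fingers was slightly lower than the rest of the same exon in ESCs. In total 563 shared CpGs lay inside 177 fingers of 46 genes, with means of 13.8%, 15.3%, 64.3% and 14.6%. In the 23 genes with at least 5 CpGs in fingers and 5 outside, the finger median was 6.29% against 12.4% outside in R1 ESCs and 4.02% against 11.4% in Tet/Tet ESCs. Fingers were lower than the rest in 19 of 23 genes in each ESC library. In R1 neurons they were lower in 9 of 23, with medians of 93.0% and 91.9%, and in Tet/Tet neurons in 11 of 23. CpGs of an array share fragments and reads and are not independent.

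CpGs were not spread evenly over the finger. Counting from 1 at the first base of the first cysteine codon, in fingers with 2 codons between the cysteines, position 55 held the most, with 63 CpGs in 26 genes, and position 12 the next, with 54 in 21 genes. Position 12 is the last base of the second cysteine codon, and position 55 is the first base of a codon between the histidines. The mean at position 55 was 11.8%, 11.7%, 65.3% and 15.4%, and at position 12 it was 15.9%, 19.02%, 59.8% and 12.03%. Standard deviations over CpGs were 36.2 and 37.6 points in R1 neurons, and as the positions draw on different genes their levels were not compared.

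**Figure D5:**
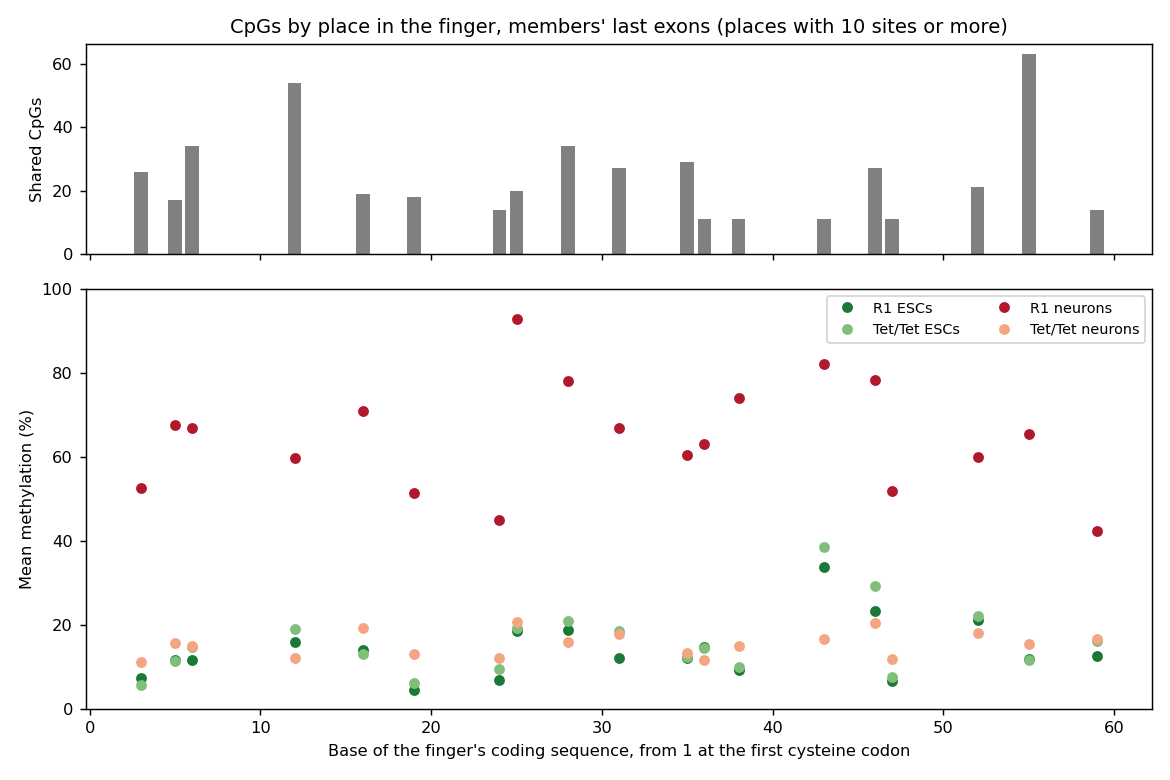
Number of shared CpGs (upper panel) and their mean methylation in % (lower panel) by base of the finger's coding sequence, for positions with at least 10 CpGs; colours are the 4 libraries. Different positions draw on different genes, R1 neurons lie above the other libraries at every position shown, and position 55 holds the most CpGs.

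The family was also split by features that the rule did not use. Last exons of the 17 genes with a KRAB pattern had medians of 32.7% and 45.2% in R1 and Tet/Tet ESCs, and those of the 52 without it 23.4% and 22.8%. The median of the differences per gene was smaller, at 1.93 points in the 17 and -0.69 points in the 52. In the neurons of R1 the medians were 94.7% and 94.0%, and in those of Tet/Tet 17.3% and 18.2%. Gene bodies of 43 genes with no promoter island stood at 48.5% in R1 ESCs, against 30.4% in 93 genes with one. Clustered and unclustered genes had gene body medians of 37.2% and 34.7% in R1 ESCs and 92.6% and 88.0% in R1 neurons.

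Clusters differed from each other in ESCs. In the chromosome 6 cluster of Zfp786, Zfp398, Zfp282, Zfp212, Zfp956, Zfp777 and Zfp746, the 6 last exons had medians of 7.45%, 10.1%, 94.39% and 15.8%. In the chromosome 5 cluster of Zfp12, Zfp316 and Zfp853, the 3 had 8.16%, 5.63%, 59.8% and 10.4%. In the second chromosome 17 cluster, which holds Zfp799, the 3 had 54.8%, 66.1%, 97.1% and 23.9%. The chromosome 13 cluster kept 9 of 19 genes, and its 4 gene bodies had medians of 24.8%, 25.4%, 64.3% and 12.1%.

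Members of known function were taken from a fixed list. Each gene body given below was highest in R1 neurons, as in the family. Most of them lay below the family's lower quartile there, which was 64.4%. The few promoters given for this list were under 10% in every library. Zfp57, which maintains methylation at imprinted regions, had no shared promoter site. Its gene body measured 6.96%, 3.74%, 38.5% and 4.53% over 23 CpGs. Its last exon measured 22.6%, 7.12%, 92.0% and 13.6% over 5 CpGs, of which 4 were lower in Tet/Tet ESCs and none higher.

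Genes with roles in neural cells came next on this list. Zfp521, a promoter of neural fate, measured 27.1%, 24.1%, 60.9% and 12.8% over 181 CpGs. Zfp462 measured 28.7%, 25.6%, 65.9% and 15.7% over 154, so its body did not share the rise of its last exon in ESCs. Zfp335, needed for neural progenitor growth, measured 35.3%, 34.8%, 85.70% and 19.3% over 38. These bodies differed little between the ESC libraries.

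Zfp64 measured 15.8%, 14.8%, 60.2% and 14.4% in its body and 11.1%, 8.46%, 91.9% and 18.2% in its last exon. Zfp217, a transcriptional corepressor, measured 7.12%, 9.02%, 34.3% and 7.52% over 189 CpGs, 120 of them in an island, and Zfp516, a regulator of brown fat, 17.9%, 15.8%, 55.6% and 12.5% over 217. Zfp148, which binds GC-rich promoters, measured 21.2%, 24.2%, 51.9% and 13.9% in its body. Its last exon of 5 CpGs measured 36.7%, 53.9%, 95.8% and 24.95%, with 2 CpGs higher and 3 lower in Tet/Tet ESCs, so that mean rests on few sites.

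Further bodies of the same list were those of Zfp384, at 32.1%, 40.1%, 87.0% and 15.6%, Zfp292, at 29.7%, 25.4%, 83.9% and 11.4%, and Zfp318, at 69.9%, 73.5%, 96.9% and 13.0%. Zfp91, a ubiquitin ligase, stood at 13.9%, 18.1%, 30.9% and 9.51%, Zfp638 at 12.9%, 7.80%, 22.1% and 4.63%, and Zfp708 at 16.8%, 16.4%, 29.3% and 12.3%. Zfp207, a spindle assembly factor, had a promoter at 1.89%, 1.22%, 1.33% and 1.25%, that of Zfp639 was at 4.61%, 3.69%, 4.59% and 5.19%, and that of Zfp932 at 0.922%, 1.29%, 5.19% and 6.38%. In Zfp932, 52.6% of the stretches of the last coding exon occur elsewhere.

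Genes of the silencing pathway that KRAB zinc finger proteins recruit, and of maintenance methylation, were read in the same way. Of a list of 21, 17 lay on the chromosomes used, and 16 had a promoter value and 14 a gene body value. No promoter differed by 10 points between the ESC libraries, against 2.19% higher and 1.0% lower among other genes. Of the 14 gene bodies, 1 was higher and 1 lower in Tet/Tet ESCs, against a background of 10.7% and 4.09%. Morc2a, a partner of the HUSH complex, was higher, from 51.6% to 65.9% over 18 CpGs. Cbx1, which encodes HP1-beta, was lower, from 90% to 0% over 5 CpGs. It stood at 100% and 8% in the neurons of R1 and Tet/Tet. Such round values may rest on few reads and depth is unknown, so the size of that fall is uncertain. In neurons all 14 bodies were lower in Tet/Tet, with differences from -27.3 to -92.0 points, beside the background of 96.1% of other genes. Setdb1 measured 47.8%, 43.2%, 97.4% and 12.3% in its body. Of the 16 promoters, 1 was lower in Tet/Tet neurons, against a background of 25.7%. It was that of Uhrf1, which guides DNMT1 to hemimethylated DNA, and it went from 12.9% in R1 neurons to 2.68% in Tet/Tet neurons.

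Beside the Zfp genes stand families of the same fold. Last exons of 15 Zbtb genes, which join fingers to a BTB domain, had medians of 25.6%, 23.4%, 87.6% and 16.2%. Those of 5 Zscan and Zkscan genes, which carry a SCAN domain, had 46.6%, 57.6%, 94.8% and 24.0%. In ESCs 2 of the 15 and 2 of the 5 were higher in Tet/Tet, numbers too small to set against 16 of 69.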

How the data were processed

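Percent methylation per CpG was analysed in 4 mouse libraries, 1 per condition. Per the labels and the study's methods, the authors trimmed reads with Trim Galore 0.6.4, checked them with FastQC 0.11.8, aligned them to mm10 with Bismark 0.19.0 and extracted CpG calls with MethylDackel 0.3.0. The deposited values are percent methylated reads per CpG, without counts, so low coverage cannot be filtered and a site with few reads weighs as much as any other. The rule leaves out chromosomes 7 to 10 and X. In the Tet/Tet neuron library, sites of chromosomes 8 and 9 and of parts of 7 and 10 are not among those analysed here, so genes there have no sites shared by all 4 libraries.

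Every listed site was checked to be the first base of a CpG in GRCm38 (0 exceptions). Region levels were unweighted means over sites listed in all 4 libraries, computed with Python 3.11.15, numpy 2.4.6 and pandas 2.3.3, with at least 5 sites. The gene body is the gene outside the promoter, and the last exon is that of the protein-coding transcript with the longest coding sequence. CpG islands were called on the sequence (over 200 bp, at least 50% GC, observed over expected CpG above 0.6), which gave 23535. Fingers and KRAB boxes were read as in-frame codon patterns. The scripts were tested on simulated data.

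Genes were named by rule: the 3 largest rises and falls per region and cell type among members with at least 10 sites, the 3 highest and lowest bodies in Tet/Tet neurons, genes of textbook function, members with opposite differences in ESCs and neurons, and the silencing pathway. Others, among them the last exons low in R1 ESCs, were named after their values were seen. The members and lists were chosen with earlier results of these data known. Alternatives changed the minimum of sites, the sites used, the weighting, the region, the members and the size of a counted difference.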

Additional observations from a re-analysis of the deposited data

Results flagged for a closer look

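In 38 regions of 30 Zfp genes Tet/Tet was at least 10 points higher than R1 in ESCs and at least 10 points lower in neurons, and each is given here because its differences ran in opposite directions. With 1 library per condition the difference between the 2 cell types was not tested. They are all of the 3 promoters, 19 gene bodies and 16 last exons counted as higher in Tet/Tet ESCs. Among other genes 2.19%, 10.7% and 15.7% of these regions were higher in ESCs, and 25.7%, 96.1% and 88.5% were lower in neurons. The share of other genes that met both conditions was not counted. As nearly all gene bodies and last exons were lower in Tet/Tet neurons, a rise in ESCs alone placed most regions here. Each value below is the difference in neurons minus the difference in ESCs, in percentage points. For the 3 promoters it was -113 in Zfp229, -80.2 in Zfp831 and -100.1 in Zfp951.

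For gene bodies it was -97.5 in Zfp879, -99.1 in Zfp287, -94.0 in Zfp750, -84.2 in Zfp410, -94.3 in Zfp346, -90.7 in Zfp369 and -124 in Zfp825. It was -87.2 in Zfp957, -83.6 in Zfp7, -106 in Zfp263, -78.7 in Zfp160, -76.5 in Zfp799 and -93.3 in Zfp35. Further gene bodies gave -111 in Zfp24, -94.1 in Zfp474, -62.8 in Zfp984, -102 in Zfp933, -67.1 in Zfp326 and -103 in Zfp11.

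For last exons it was -93.0 in Zfp142, -97.5 in Zfp879, -90.3 in Zfp366, -89.1 in Zfp957, -84.1 in Zfp7, -87.9 in Zfp148, -76.5 in Zfp799 and -93.1 in Zfp35. The others gave -102 in Zfp474, -93.1 in Zfp661, -97.4 in Zfp663, -95.9 in Zfp462, -94.1 in Zfp69, -102 in Zfp933, -99.4 in Zfp11 and -96.4 in Zfp398.

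Of the 38, 21 rest on under 10 CpGs, and several gene bodies share their CpGs with the last exon of the same gene. In MspI fragments 15 kept at least 5 CpGs, and in all 15 Tet/Tet was still at least 10 points higher in ESCs. They are the gene bodies of Zfp11, Zfp160, Zfp287, Zfp35, Zfp474, Zfp7 and Zfp957 and the last exons of Zfp11, Zfp366, Zfp398, Zfp462, Zfp661, Zfp69, Zfp7 and Zfp957. These fragment CpGs are among those by which the regions were chosen, so the count is not independent support. In Zfp11 and in Zfp7 the gene body and the last exon gave the same fragment values. The promoters of Zfp831 and Zfp951 measured 11.01 and 31.2 points higher in Tet/Tet ESCs over the 3 and 4 CpGs they had in fragments.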

How the results depend on the processing

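Of 228 recomputed values over 24 results, 184 stayed in direction and near the reported value, 41 moved and 3 changed sign. The sign changed for the median difference of last exons between Tet/Tet neurons and Tet/Tet ESCs, -15.2 points as reported, which was 6.75 with at least 20 sites, 1.71 in MspI fragments and 0.049 in the coding part only (and -4.77 outside soft-masked repeats). The cause was not tested. With the promoter part included, gene body medians were -27.2 (neurons, Tet/Tet minus R1), 17.98 (R1 neurons minus R1 ESCs) and -6.08 points (Tet/Tet neurons minus Tet/Tet ESCs), as promoters are low.

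Most settings read fewer regions. Promoters higher in Tet/Tet ESCs (3) numbered 0 with at least 20 sites and in MspI fragments, and 5 outside islands and with 1 value per 100 bp. Those lower (0) numbered 1 in fragments, outside islands and upstream only, and 3 with 1 value per 100 bp. Promoters lower in Tet/Tet neurons (27) numbered 5 with at least 20 sites, 12 in fragments and at 25 points, 13 outside clusters, 43 outside islands and with the pair's sites (1 then higher), and 47 with 1 value per 100 bp. Gene bodies higher in ESCs (19) numbered 4 with 20 sites and at 25 points, 10 in fragments and 11 outside clusters. Those lower (8) numbered 1, 2, 0 and 5 in the same order, and 4 with the promoter part. Gene bodies lower in neurons (134) numbered 75 of 77 with 20 sites and 89 of 99 in fragments. Last exons higher in ESCs (16) numbered 3 of 24 with 20 sites, 8 in fragments, 10 outside clusters and 1 at 25 points. Those lower (5) numbered 0 with 20 sites, in fragments and at 25 points, and 2 in the coding part. Last exons lower in neurons (65) numbered 20 of 24 and 43 of 47.

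For last exons low in R1 ESCs, alternatives chosen after seeing the data gave shares at 50% or more in R1 neurons of 82.8% and 47.3% (Zfp and other genes) under 20% in place of 10%, and 14.8% in other genes with at least 20 sites. Median island exons over 1 kb from the start measured 86.0% and 30.7%. No paired analysis was possible because each condition had 1 library. Depth is unknown, so no interval was given.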

Other observations

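Zfp genes on chromosomes 7 to 10 and X were not among those described above. Of 143, 73 had at least 5 sites listed in all 4 libraries, and a gene whose sites are not analysed here in 1 library could not be among them. The 36 last exons, 35 of them on chromosome 7, had medians of 24.99% and 36.7% in the ESCs of R1 and Tet/Tet, and 91.9% and 18.1% in their neurons. In ESCs 9 were higher in Tet/Tet and 1 was lower, against 14.3% and 3.25% of 308 last exons of other genes on these chromosomes, 202 of them on chromosome 7. In neurons all 36 were lower, against 89.6%. The 56 gene bodies had medians of 27.9%, 40.4%, 89.6% and 17.4%, with 11 higher and 5 lower in Tet/Tet ESCs, against 13.4% and 4.56% of 965 other genes, 522 of them on chromosome 7. The 62 promoters stood at 2.45%, 3.17%, 6.71% and 2.96%.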
